A study of Danio rerio with 6 samples.

Results

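The genes described here carry a dividing cell through mitosis and cytokinesis. They are 48 genes named by symbol: cyclins and the kinase they switch on, mitotic kinases, spindle checkpoint and kinetochore proteins, spindle motors, condensins, regulators of anaphase and the proteins of the cleavage furrow. Of these, 47 were found by their symbol among the 31701 genes of the deposited table, each in a single row. *incenp*, which encodes the scaffold of the chromosomal passenger complex, had no row under that symbol and was not analysed here.

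The tissue was the whole larval zebrafish heart, taken by dissection between 57 and 59 hours after fertilization. Animals labelled mutant were compared with their wild-type (WT) siblings, with 3 biological replicates per genotype, and each replicate was a pool of 23 hearts that gave 1 sequencing library. The series title names Wwtr1, also known as Taz, a transcriptional coactivator at the end of the Hippo pathway; which allele the mutants carry is not stated in the labels. Values are read counts per gene that the authors scaled between libraries and rounded, and they are called normalised read counts below.

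Cells enter mitosis when cyclins of the A and B type activate Cdk1, which drives chromosome condensation, breakdown of the nuclear envelope and assembly of the spindle. The spindle checkpoint holds the anaphase-promoting complex inactive until every kinetochore is attached; that complex then marks cyclin B and securin for destruction, separase cuts the cohesin rings, and a contractile ring divides the cell. Transcripts of many of these genes accumulate in late S phase, G2 and mitosis. Such transcripts are known as markers of proliferating cells in a tissue. Cardiomyocytes, endocardial cells and blood cells can all divide in the larval zebrafish heart. In pooled whole hearts fewer dividing cells and less RNA per dividing cell cannot be told apart.

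The labels and the tissue were checked first. Transcripts of *wwtr1* stood at 362, 416 and 471 in WT replicates 1 to 3 and at 128, 151 and 100 in mutant replicates 1 to 3 (log2 change −1.72, SE 0.155, limma adjusted p = 0.000251). The myocardial genes *myl7*, *myh6*, *vmhc*, *tnnt2a* and *actc1a* were between 14438 and 71816 in every library. Summed values per library ran from 19187058 to 25227868, of which ribosomal RNA features took 40.4% to 43.9%. A gene was tested if 3 or more libraries reached a value of 10, which left 18901 genes, and every one of the 47 mitosis genes was among them, with single values from 19 to 2292.

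No mitosis or cytokinesis gene passed the test between mutant and WT hearts once p-values were adjusted over all genes tested. Most members had a slightly lower mean in mutant hearts: 36 of 47 had a log2 change below 0 and 11 above it, and the median was −0.11. Over all 18901 genes 50.6% were below 0 and the median was −0.00. An unadjusted p under 0.05 was found for 3 members, all lower in mutant hearts: *cenpf*, a protein of the outer kinetochore, *espl1*, which encodes separase, and *ect2*, the exchange factor that switches on RhoA at the cleavage furrow.

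The test was limma on log2(value + 1) with Benjamini-Hochberg adjustment, and adjusted p ran from 0.456 to 0.997 over the members; 0 of 47 were called against 7 of all genes tested, or 0.037%. An unadjusted p under 0.05 with a lower mutant level was found for 3 of 47 members, or 6.38%, beside 3.35% of all genes tested. In the higher direction there were 0 members, beside 3.25%. Every mutant value lay under every WT value in 3 members (*cenpf*, *ect2* and *mki67*), or 6.38%, beside 5.53% of all genes, and 0 members had the opposite arrangement, beside 5.57%. Overlap was read from the values as deposited and was not repeated under other scalings, which can change it. With single libraries left out, the count of lower members ran from 31 to 38 and was lowest without WT replicate 3. The median was −0.06 without that library and −0.07 without mutant replicate 1.

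**Figure D1:**
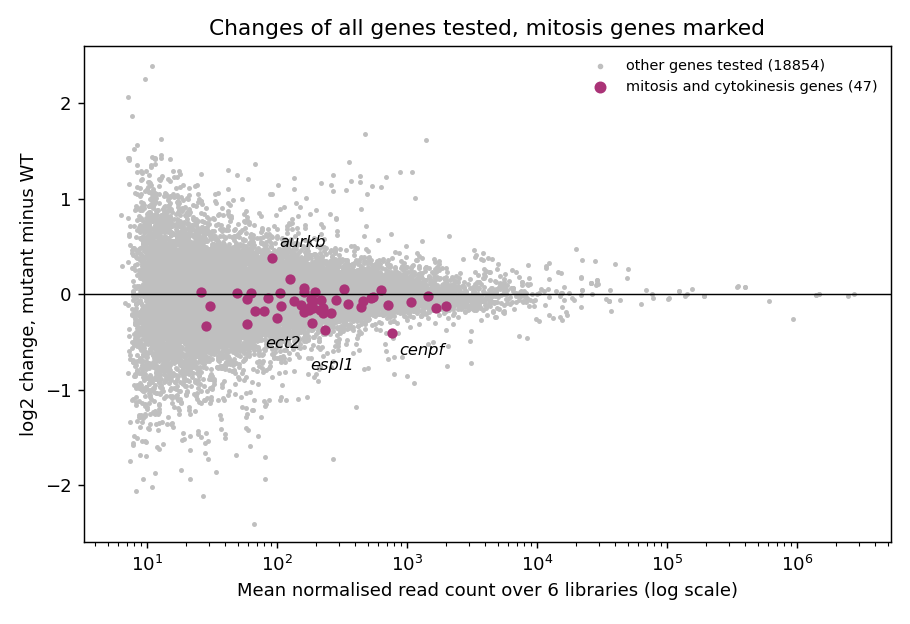
Log2 change between mutant and WT hearts (vertical axis, mutant minus WT) against the mean normalised read count over 6 libraries (horizontal log axis) for the 18901 genes tested. The 47 mitosis and cytokinesis genes are marked and lie within the range of other genes of like level, mostly just under 0, from −0.41 for *cenpf* to 0.38 for *aurkb*.

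The 95% interval of the log2 change stayed within a 1.5-fold change in either direction for 37 of 47 members and within a 2-fold change for 46. The exception at 2-fold was *ccnb2*, whose values were among the lowest. Intervals crossed 0 for 44 members. The median ratio of within-genotype variance to mean was 2.05 over the members, beside 2.45 over tested genes in the same range of means.

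**Figure D2:**
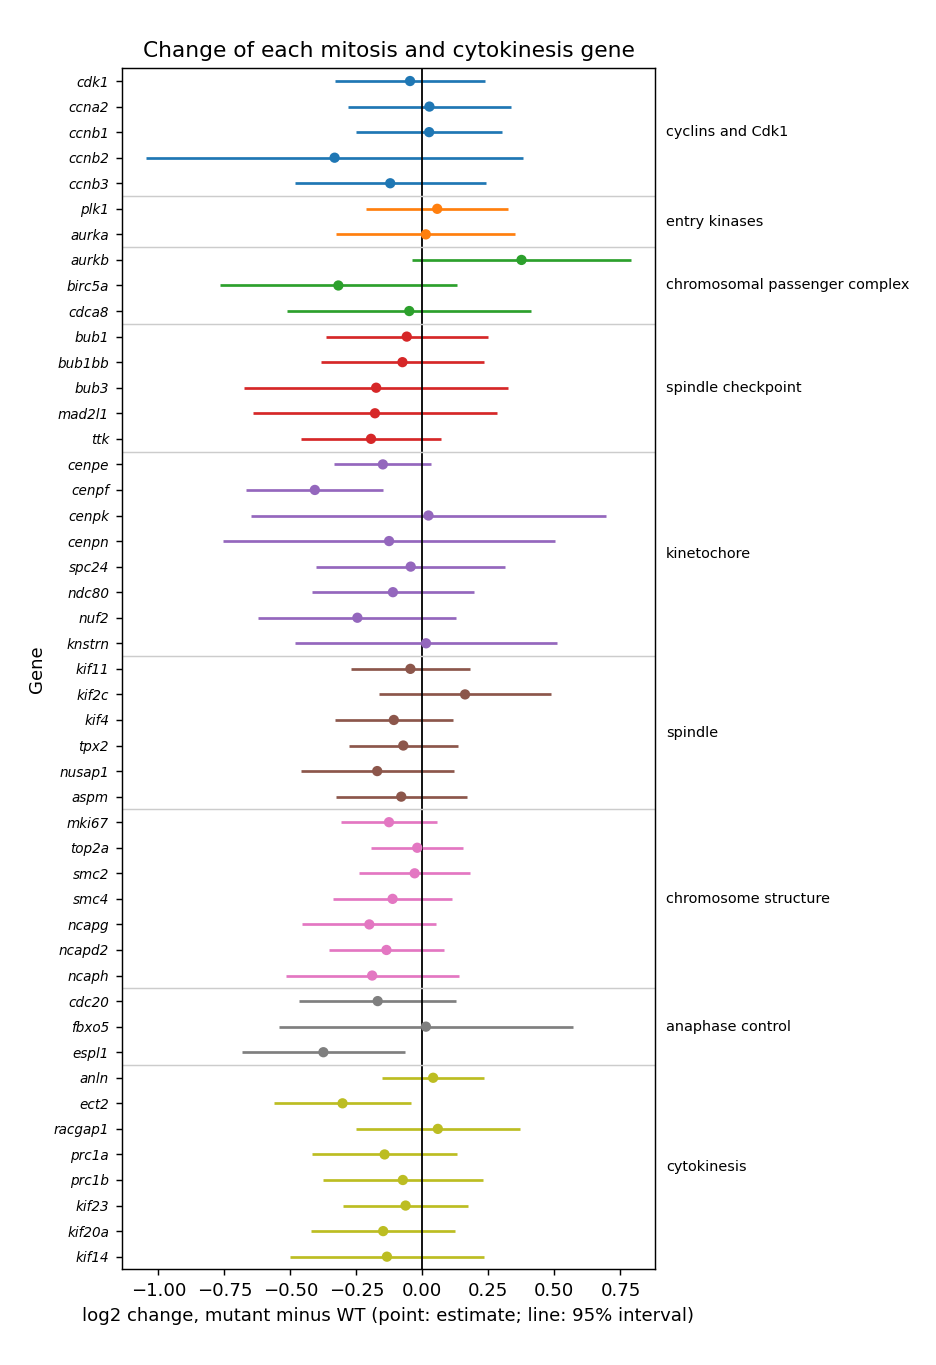
Log2 change of each of 47 mitosis and cytokinesis genes (points, mutant minus WT) with its 95% interval (lines), grouped by role. Intervals cross 0 except for *cenpf*, *espl1* and *ect2*, and the widest is that of *ccnb2*, from −1.05 to 0.38.

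Of the 5 cyclin and Cdk1 genes, 3 had log2 changes below 0 and 2 above it, and none passed the test. *cdk1* (ENSDARG00000087554), the kinase itself, stood at 198, 184 and 180 in WT and at 159, 199 and 188 in mutant replicates 1 to 3. The mutant values lie on both sides of the WT values, and the log2 change was −0.05 (95% interval −0.33 to 0.24, limma adjusted p = 0.979). *ccna2*, the A-type cyclin of S phase and G2, stood at 175, 200 and 206 in WT and at 226, 207 and 163 in mutant, with the highest and the lowest of the 6 values both in mutant hearts. *ccnb1*, the main B-type partner of Cdk1, was among the steadiest members, at 160 ± 3.79 (SD, n = 3) in WT and 163 ± 8.02 (n = 3) in mutant hearts, a log2 change of 0.03 (interval −0.25 to 0.30). The related *ccnb2* stood at 28, 47 and 23 against 26, 30 and 19, so that a single WT pool made the difference between its group means. *ccnb3* stood at 113 ± 13.9 against 104 ± 15.1.

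Both kinases of mitotic entry and spindle assembly had log2 changes just above 0. *plk1*, the polo-like kinase that acts at centrosomes, kinetochores and the midzone, stood at 367, 289 and 318 in WT and at 293, 348 and 372 in mutant hearts, with overlapping groups and a log2 change of 0.06 (interval −0.21 to 0.32). *aurka*, the centrosomal Aurora kinase, stood at 103, 102 and 110 against 119, 96 and 104 (log2 change 0.01). Within the chromosomal passenger complex, which corrects faulty attachments and later steers cytokinesis, members went in different directions. *aurkb*, its kinase, had the highest log2 change of all 47 members, 0.38 (SE 0.194, limma adjusted p = 0.785). It stood at 61, 85 and 98 in WT and at 111, 104 and 97 in mutant hearts, so the groups overlapped by the highest WT pool. Without WT replicate 1, the lowest pool, the change was 0.18, and without WT replicate 3 it was 0.52 (adjusted p = 0.838). *birc5a*, which encodes survivin, stood at 65.3 ± 8.96 against 52 ± 4.58 and *cdca8*, which encodes borealin, at 65, 49 and 67 against 50, 62 and 62.

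**Figure D3:**
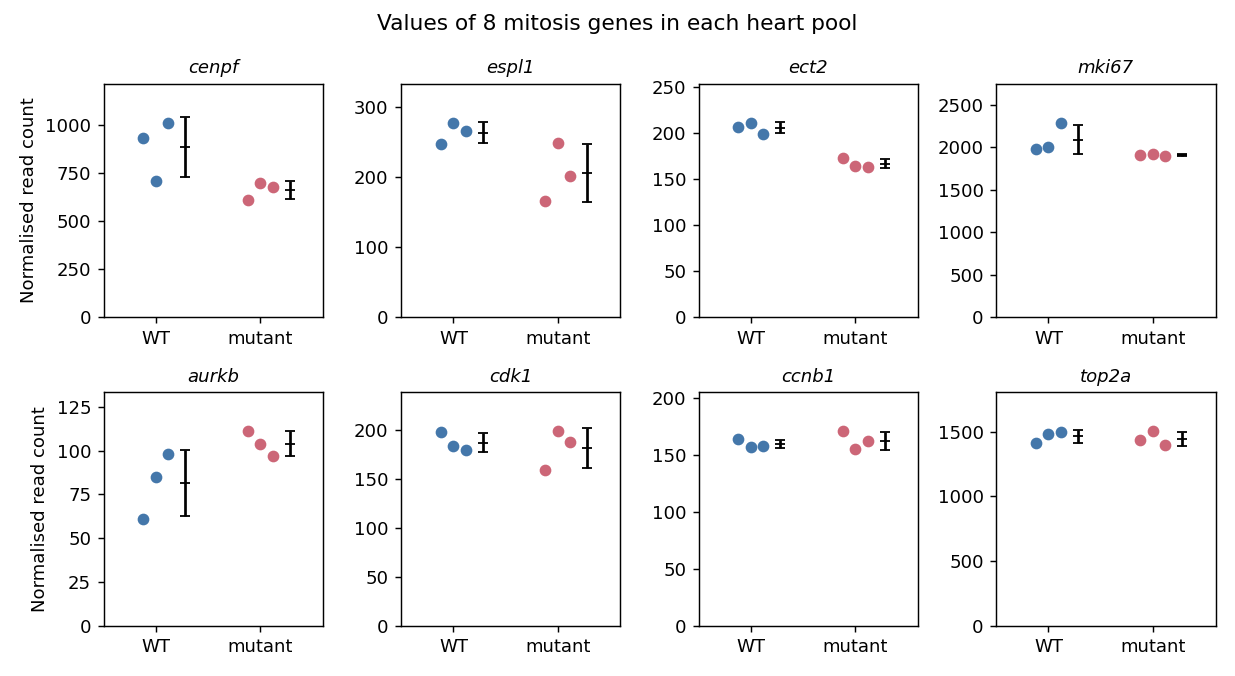
Normalised read counts of 8 mitosis genes in each heart pool (points; vertical axes start at 0), with the mean and SD of the 3 pools per genotype. Groups do not overlap for *cenpf*, *ect2* and *mki67*, while those of *cdk1*, *ccnb1*, *top2a*, *espl1* and *aurkb* overlap.

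All 5 spindle checkpoint genes had log2 changes below 0, from −0.06 to −0.19, and none passed the test. *ttk*, the Mps1 kinase that starts the checkpoint signal, stood at 233, 250 and 248 in WT and at 194, 242 and 205 in mutant hearts (log2 change −0.19, interval −0.46 to 0.07). Its second mutant pool lay within the WT range and the others below it. *bub1*, a kinase of the checkpoint, stood at 189, 251 and 235 against 187, 216 and 244, and the groups overlapped over nearly their whole range. *bub1bb* (BubR1), *bub3* and *mad2l1*, which together form the inhibitor of the anaphase-promoting complex with Cdc20, stood at 139 ± 9.87, 84 ± 19.5 and 71.3 ± 8.33 in WT and at 132 ± 11.9, 75 ± 20.3 and 63.7 ± 14.6 in mutant hearts. In each of the 5 genes the lowest of the 6 values was that of mutant replicate 1. With single libraries left out, *bub1* and *bub3* crossed 0, reaching 0.04 and 0.05. The log2 changes of *bub1bb*, *mad2l1* and *ttk* rose to −0.001, −0.02 and −0.13 at most.

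Kinetochore genes held the member with the lowest p. *cenpf* (ENSDARG00000055133, GRCz10 chromosome 17, 32769654 to 32790533) stood at 930, 709 and 1011 in WT and at 607, 694 and 678 in mutant hearts. The mutant pools lay below the WT pools, with the second WT pool the closest to them. The log2 change was −0.41 (SE 0.121, interval −0.67 to −0.15, unadjusted p = 0.00450, limma adjusted p = 0.456). Without WT replicate 2 the change was −0.56 and the limma adjusted p 0.0418. That fit called 46 of all genes tested, against 7 with all libraries. With any other library left out the adjusted p of *cenpf* was between 0.571 and 0.855. *cenpe*, the kinetochore motor that carries chromosomes to the metaphase plate, stood at 1639, 1871 and 1798 against 1506, 1608 and 1668, a log2 change of −0.15 (interval −0.33 to 0.03, adjusted p = 0.827). The table also lists *cul4a* across the whole span of *cenpe* on the same strand, at 383 in WT and 370 in mutant hearts. In the same way *isy1* covers *nuf2*, at 163 and 164, and *ago4* covers *cdca8*, at 397 and 449. How reads shared by such genes were assigned is not stated.

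The Ndc80 complex, which grips the microtubule end, was represented by *ndc80*, *nuf2* and *spc24*. Their log2 changes were −0.11, −0.25 and −0.04, with *nuf2* at 110 ± 12.3 in WT and 92.7 ± 14.6 in mutant hearts and *spc24* at 87.3 ± 4.51 and 84.7 ± 4.04. The inner kinetochore genes *cenpk* and *cenpn* had values between 19 and 41 and wide intervals, −0.65 to 0.69 and −0.76 to 0.50. *knstrn*, a spindle and kinetochore adaptor, stood at 62.7 ± 8.74 against 64.3 ± 16.6. In position, *ndc80* (chromosome 12, 10315490 to 10328126) and *mki67* (10328774 to 10343439) are immediate neighbours on the minus strand with 647 bases between them, and *top2a* lies 325029 bases further on. Their log2 changes were −0.11, −0.13 and −0.02.

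Among spindle motors and microtubule proteins 5 of 6 had a log2 change below 0 and none passed. *aspm*, which organises spindle poles, stood at 994, 1029 and 1286 in WT and at 964, 1206 and 958 in mutant hearts, with 1 high pool in each genotype. *kif11*, the motor that pushes the poles apart, stood at 526, 507 and 597 against 506, 582 and 492 (log2 change −0.05). Its second mutant pool lay within the WT range and the others just below it. *kif4*, *tpx2* and *nusap1*, a chromokinesin, a microtubule nucleation factor and a microtubule bundler, had log2 changes of −0.11, −0.07 and −0.17. *kif2c*, a microtubule depolymerase, was the exception at 119 ± 4.04 in WT and 134 ± 18.5 in mutant hearts (log2 change 0.16, interval −0.17 to 0.49). *aspm* and *kif14* lie on chromosome 22, which also carries *wwtr1*.

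The 7 genes of chromosome structure all had log2 changes below 0, from −0.02 to −0.20, with none past the test; *top2a* and *smc2* crossed 0 when single libraries were left out. *mki67*, which encodes the Ki-67 protein that coats mitotic chromosomes and is the most used histological marker of cycling cells, stood at 1976, 2007 and 2292 in WT and at 1913, 1924 and 1899 in mutant hearts. The groups did not overlap, the mutant pools lay close together and WT replicate 3 stood above the other WT pools. The log2 change was −0.13 (interval −0.31 to 0.05, limma adjusted p = 0.857). Without WT replicate 3 it was −0.06. *top2a*, the topoisomerase that untangles sister chromatids, stood at 1408, 1480 and 1498 against 1432, 1502 and 1394 with fully overlapping groups, and its interval, −0.19 to 0.15, was the narrowest of the 47. The condensin genes *smc2*, *smc4*, *ncapg*, *ncapd2* and *ncaph* had log2 changes of −0.03, −0.11, −0.20, −0.14 and −0.19. Of these *ncapg* stood at 279 ± 21.4 in WT and 243 ± 20.8 in mutant hearts and *ncaph* at 171 ± 9.07 and 152 ± 27.5. Within the span of *ncapd2* the table lists 3 copies of the small nucleolar RNA snoU85 on the same strand, each with a log2 change above 0.

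Of the genes that time anaphase, *espl1* (ENSDARG00000075354, chromosome 6, 39671314 to 39703429), the separase that cuts cohesin, stood at 247, 278 and 266 in WT and at 166, 249 and 202 in mutant hearts. The second mutant pool was just above the lowest WT pool and the others were below all WT pools. The log2 change was −0.37 (SE 0.145, interval −0.68 to −0.07, unadjusted p = 0.0211, limma adjusted p = 0.675). Without mutant replicate 1 it was −0.23 with an unadjusted p of 0.127. *cdc20*, the activator of the anaphase-promoting complex that the checkpoint holds in check, stood at 166, 210 and 183 against 148, 170 and 178 (log2 change −0.17, interval −0.47 to 0.13). *fbxo5*, which encodes the Emi1 inhibitor of that complex, was at 48 ± 1.00 in WT and 50.3 ± 17.2 in mutant hearts, where single pools were at 69, 35 and 47.

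Among the 8 cytokinesis genes, *ect2* (ENSDARG00000007278, chromosome 11, 10404945 to 10472696) had the tightest replicates of all members. It stood at 206, 211 and 199 in WT and at 172, 164 and 163 in mutant hearts, groups that did not overlap. The log2 change was −0.30 (SE 0.122, interval −0.56 to −0.04, unadjusted p = 0.0258, limma adjusted p = 0.699), and with single libraries left out it ran from −0.33 to −0.28, with unadjusted p from 0.0338 to 0.0673. Its partner *racgap1*, which with the motor *kif23* forms the centralspindlin complex that brings Ect2 to the midzone, stood at 147, 162 and 166 against 190, 140 and 168 (log2 change 0.06). *kif23* itself stood at 300, 301 and 269 against 273, 266 and 293 (log2 change −0.06), and *anln*, the anillin that links actin, myosin and septins in the ring, at 619, 606 and 655 against 635, 626 and 673 (log2 change 0.04, interval −0.15 to 0.23). In these 3 genes the genotypes overlapped. The midzone bundlers *prc1a* and *prc1b* and the motors *kif20a* and *kif14* had log2 changes of −0.14, −0.07, −0.15 and −0.13.

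**Figure D4:**
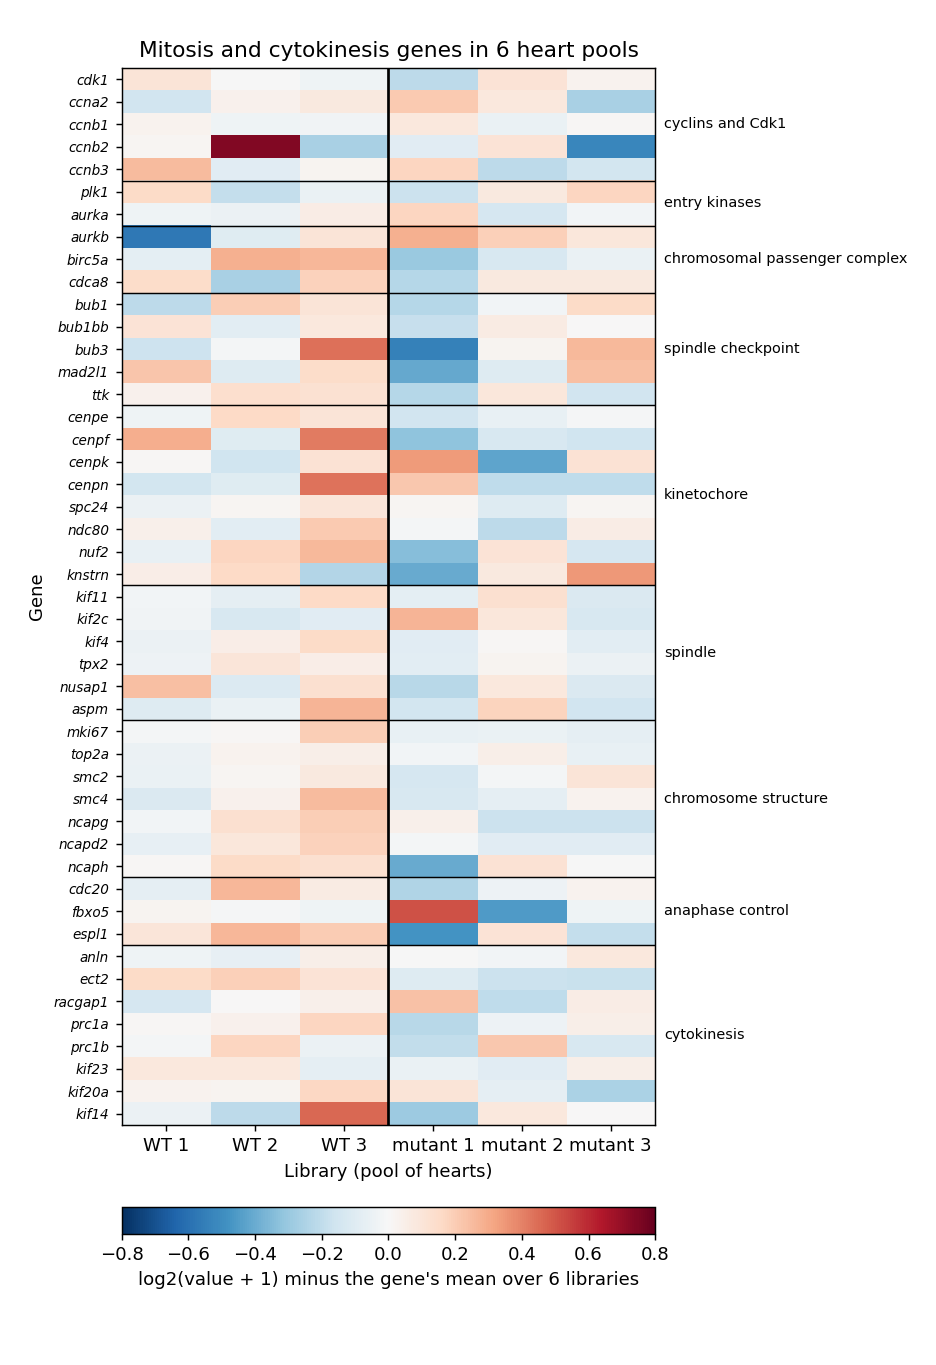
Each row is 1 of 47 mitosis and cytokinesis genes and each column 1 heart pool; colour gives log2(value + 1) minus the gene's mean over the 6 libraries, with roles at the right. WT replicate 3 is the highest pool in 17 of 47 genes and mutant replicate 1 the lowest in 22 of 47. Over all genes tested the shares are 19.6% and 16.4%, with a tied value given to the earlier library.

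The members' differences were spread unevenly over the libraries. WT replicate 3 was the highest of the 6 libraries in 17 members and the lowest in 0, and mutant replicate 1 was the lowest in 22, although it was also the highest in 8, among them *aurkb*, *ccna2*, *fbxo5* and *racgap1*. Over all genes tested, with a tied value given to the earlier library, WT replicate 3 was the highest in 19.6% and the lowest in 17.1%. Mutant replicate 1 was the lowest in 16.4% of them and the highest in 16.2%. The mean log2 deviation of the members from their own means was −0.01, 0.03 and 0.12 in WT replicates 1 to 3 and −0.09, −0.02 and −0.03 in mutant replicates 1 to 3, while that of all genes tested stayed between −0.01 and 0.02. The lowest WT pool, replicate 1, was closest to mutant replicate 2 and farthest from mutant replicate 1. Summed over the members, values were 15689, 16114 and 17444 in WT and 14732, 15717 and 15307 in mutant hearts, 16416 ± 916 against 15252 ± 495 (SD, n = 3), or 7.09% lower by a sum in which the largest genes weigh most. The summed values of the genotypes overlapped only between WT replicate 1 (15689) and mutant replicate 2 (15717). The mean log2 deviations of the genotypes did not overlap. No test was made over the list.

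Genes of other steps of the cell cycle were measured in the same libraries, and 0 passed the test. In 89 other mitosis genes, 56 were below 0 and 33 above, with a median log2 change of −0.05 that was −0.01 without WT replicate 3 and −0.09 without mutant replicate 2. The cohesin subunit gene *stag1b* stood at 422, 464 and 479 in WT and at 405, 341 and 376 in mutant hearts (log2 change −0.28, unadjusted p = 0.0179, limma adjusted p = 0.642). The kinetochore gene *cenpp* stood at 57, 64 and 56 against 43, 43 and 37 (log2 change −0.52, unadjusted p = 0.0327, adjusted p = 0.718). The genes of this list with the highest means, *smc1al* and *smc3*, also encode cohesin subunits, and each had a log2 change of −0.10.

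The 50 DNA replication rows, which include a symbol that the table holds in more than 1 row, had 32 log2 changes below 0 and a median of −0.07. That median was −0.17 without WT replicate 1 and 0.01 without WT replicate 3. *cdt1*, the licensing factor that loads the replicative helicase, stood at 69, 67 and 75 in WT and 106, 94 and 81 in mutant hearts (log2 change 0.40, unadjusted p = 0.0424, limma adjusted p = 0.753). *rfc4*, a subunit of the clamp loader, stood at 113, 115 and 89 against 74, 75 and 86 (log2 change −0.42, unadjusted p = 0.0307, adjusted p = 0.709). *pcna*, the sliding clamp, had a log2 change of −0.04 and the hemimethylation reader *uhrf1* one of 0.02.

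Genes of G1 and S entry were split, with 11 of 21 below 0 and a median of −0.04, which was 0.02 without WT replicate 2. The list holds both drivers and inhibitors of this step, so its median has no single direction. Among the inhibitors *rb1*, *rbl1* and *rbl2* the log2 changes were −0.10, 0.15 and −0.05. The *cdkn2* genes of the list were too low to be tested. Of the *cdkn1* inhibitor genes, *cdkn1a* had a log2 change of −0.05. *cdkn1ba*, *cdkn1bb*, *cdkn1ca* and the low *cdkn1cb* had changes of 0.16, 0.24, 0.24 and 0.73, with 0 genes of the list under an unadjusted limma p of 0.05. The D-type cyclin gene *ccnd1*, which couples growth signals to the cell cycle, stood at 986, 895 and 993 in WT and 1013, 967 and 1035 in mutant hearts (log2 change 0.07), and *ccnd2a* had a log2 change of 0.01. Of 13 genes for transcription factors that act on mitotic promoters, 7 were below 0, with a median of −0.06 that was 0.03 without mutant replicate 2. *lin9*, a core subunit of the MuvB complex, stood at 61, 92 and 58 against 45, 46 and 51 (log2 change −0.53, unadjusted p = 0.0346, limma adjusted p = 0.735). The subunit genes *nfyc* and *rbbp4* had log2 changes of −0.14 and 0.03. The table's KEGG annotation places 13 of the 47 members in the Cell cycle pathway; the 115 other tested genes of that pathway had a median log2 change of −0.01, with 59 below 0 and 56 above.

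**Figure D5:**
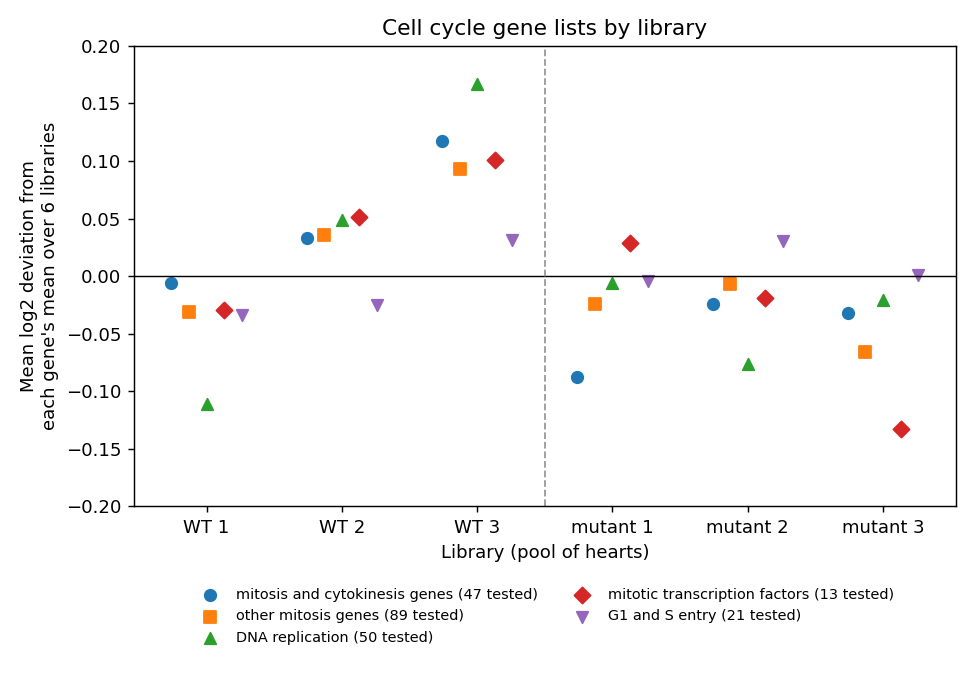
Mean log2 deviation of 5 cell cycle gene lists from each gene's mean over the 6 libraries (vertical axis), by library; symbols mark the lists. The mitosis and cytokinesis genes run from −0.09 in mutant replicate 1 to 0.12 in WT replicate 3. All 5 lists reach their highest point in WT replicate 3, from 0.03 for G1 and S entry to 0.17 for DNA replication. The lowest point of the DNA replication genes, −0.11, is in WT replicate 1.

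Markers of the cell types a heart pool can hold differed between libraries too, with 0 of them past the test. The endocardial and endothelial genes *cdh5*, *kdrl*, *fli1a*, *tie1* and *nfatc1* summed to 8715 to 9951 in WT and to 10608 to 11412 in mutant hearts, with 4 of 5 above 0. Every mutant value lay over every WT value in *cdh5*, *tie1* and *nfatc1*. Their unadjusted limma p-values were 0.00626, 0.00589 and 0.00363 (adjusted p = 0.496, 0.496 and 0.423), while *kdrl* and *fli1a* overlapped. The epicardial genes had 4 of 5 log2 changes below 0, led by *tcf21* at 77, 92 and 106 in WT and 57, 41 and 31 in mutant hearts (limma adjusted p = 0.224). Their sum overlapped (2960 to 3313 against 3009 to 3359), but most of it was *postnb*, the gene above 0. *postnb* stood at 2282, 2674 and 2175 in WT and at 2721, 2508 and 2754 in mutant hearts, so the sum says little about the others. The 6 erythroid genes found, of 7 listed, were all above 0 and summed to 81551 to 92262 in WT and to 74878 to 130529 in mutant hearts. This sum was highest in mutant replicate 1, the library in which members were most often lowest. Most of it was *hbbe1.1* and *hbae3*, but each of the 6 genes was highest in mutant replicate 1. *slc4a1a* stood at 1564, 1610 and 1444 in WT and at 2282, 1619 and 2047 in mutant hearts, without overlap. The other erythroid genes overlapped. Log2 changes of *slc4a1a* and *alas2* were 0.35 (95% interval 0.11 to 0.59) and 0.33 (0.07 to 0.59). Intervals of the other erythroid genes crossed 0. The 5 macrophage and neutrophil genes were all below 0 and summed to 352 to 591 against 267 to 451. Skin, skeletal muscle, cartilage and hatching gland markers were present in every library, several of them at high values. The keratin gene *krt4* alone was between 27512 and 42967 in every library. The skin genes summed to 40321 to 63313 in WT and to 47112 to 57929 in mutant hearts. The skeletal muscle genes summed to 16230 to 28050 and to 16053 to 22187, and both sums were highest in WT replicate 2. The cartilage genes summed to 3480 to 6467 in WT and to 3609 to 5224 in mutant hearts, highest in WT replicate 1. Of these, *matn1* stood at 225, 51 and 16 against 37, 16 and 15 (log2 change −1.42, limma adjusted p = 0.754). *col2a1a* and *sox9a* had log2 changes of −0.04 and 0.06. The 4 hatching gland rows were all above 0, with a median log2 change of 1.24. Each had an unadjusted limma p under 0.05, beside 3.25% of all genes tested in that direction. The rows are not fully separate: *he1a* and *he1b* overlap on the same strand, and the others share the symbol *ctslb*. They summed to 448 to 2502 in WT and to 1531 to 3383 in mutant hearts. The part of all these cell types in the small differences of the mitosis genes was not tested.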

How the data were processed

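Total RNA of 6 heart pools was sequenced as single reads, per the labels' protocols. The submitters' processing notes name STAR 2.4.0a, featureCounts 1.4.5-p1 and the GRCz10 assembly; neither the strand setting nor the scaling method is stated there. The deposited values are treated as a score, since the values themselves show counts that were scaled between libraries and rounded. Between 1 and 100, 3 libraries skip 5 to 12 whole numbers, the gaps that scaling by a factor above 1 leaves, so count models were not used. Factors estimated from the values ran from 0.880 to 1.13.

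Log2(value + 1) was compared between genotypes with limma 3.58.1 in R 4.3.3 (variance trend, Benjamini-Hochberg adjustment over 18901 genes, threshold 0.05), after testing the script on simulated data. Log2 changes understate those of low genes. Of the members, 13 overlap another gene of the table. Replicate numbers were not used as a block. Members and lists were chosen with earlier results of these data known. Members were named in full if they had an unadjusted p under 0.05, groups that did not overlap or 1 of the 2 largest means of their role group. From each other cell cycle list, genes with an unadjusted p under 0.05 (at most 4) and the 2 largest means were named. Other genes named were chosen after their values were seen. Transcript lengths and sequences were not used, so levels are not compared between genes.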

Additional observations from a re-analysis of the deposited data

How the results depend on the processing

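The 10 other settings that kept all libraries (pseudocounts, value filters, scalings, library weights, no variance trend and a replicate block) changed the sign of 0 members and called 0 members; the members' median log2 change stayed between −0.11 and −0.10. With the replicate block 15 of all genes tested were called, with no variance trend 0 (1176 with an unadjusted p under 0.05, against 1248 in limma with the trend), and with scaling to the total outside ribosomal and mitochondrial features 73 (29 higher and 44 lower in mutant, against 2 and 5). Same-numbered libraries did not deviate together (correlations over genes of 0.02, −0.02 and −0.02), so the numbers were not read as a pairing. Leaving out single libraries gave 5 to 46 calls over all genes tested, the 46 without WT replicate 2. Among the members it gave 0 or 1 call (*cenpf*, also without WT replicate 2) and medians of −0.12 to −0.06. The log2 change kept its sign in 28 members, 25 of them below 0, and crossed 0 in 19 with a library left out: *cdk1* −0.11 to 0.0471, *ccna2* −0.0723 to 0.16, *ccnb1* −0.0106 to 0.0598, *plk1* −0.0239 to 0.15, *aurka* −0.0700 to 0.0834, *cdca8* −0.19 to 0.052, *bub1* −0.18 to 0.0392, *bub3* −0.35 to 0.0529, *cenpk* −0.14 to 0.24, *cenpn* −0.26 to 0.0606, *knstrn* −0.16 to 0.22, *kif11* −0.12 to 0.0244, *aspm* −0.19 to 0.0355, *top2a* −0.0488 to 0.00503, *smc2* −0.087 to 0.0293, *fbxo5* −0.24 to 0.24, *racgap1* −0.0437 to 0.18, *prc1b* −0.20 to 0.00561, *kif14* −0.27 to 0.0613. Intervals reached past a 1.5-fold change for 10 members, among them the low *ccnb2*, *cenpk* and *cenpn*.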
